A study of Mus musculus with 6 samples.

Results

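The enzymes and regulators of hepatic fatty acid synthesis, chain elongation and desaturation were represented by 10 genes, Acly, Me1, Acaca, Acacb, Elovl6, Elovl5, Scd1, Fads2, Srebf1 and Thrsp. They were taken by gene symbol from a table of 54532 genes. Each symbol matched 1 row, and all 10 passed the filter on low counts that left 13377 genes for testing. The livers came from 6 male C57BL/6J mice put on a high-fat diet (HFD) at 8 weeks of age for 6 weeks, which served as the model of insulin resistance (IR). After a 16 h fast, 3 mice received an intraperitoneal injection of insulin at 0.75 units per kg body weight (IR insulin) and 3 received its carrier bovine serum albumin (IR vehicle), with livers collected 6 h later. All 6 mice thus shared the diet, the fast and the strain, and no chow-fed group is part of the comparison. The comparison addressed which hepatic transcripts still respond to insulin in the IR state.

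De novo lipogenesis turns surplus carbohydrate into fatty acids. Citrate exported from mitochondria is split to acetyl-CoA, which is carboxylated to malonyl-CoA and joined into palmitate by fatty acid synthase, and elongases and desaturases then lengthen the chain and insert double bonds. In the fed liver, insulin is known to raise the transcription of many of these genes through the sterol regulatory element-binding protein SREBP1c, and glucose does so through ChREBP, the product of Mlxipl.

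Between 18449986 and 21827619 reads were counted per library, and each of the 10 genes had between 231 and 83680 reads in every library. Values are TMM-normalized read counts scaled to one common library size (CPM), and a positive log2 fold change means a higher level with insulin. Vehicle replicate 2 stood apart, being the highest or the lowest of the 6 libraries for 73.2% of all genes tested, against 13.7 to 47.2% for the other 5 libraries. It had reads for 16470 genes, against 18389 to 18874 in the others. Its deviation from the other libraries moved with the GC content of the transcript, at −1.12 on the log2 scale per 10 percentage points, where the slopes of the others ran from −0.0636 to 0.188. Each of 6 hepatocyte markers had 445 CPM or more in every library. Alb reached 138554 CPM in vehicle replicate 2, against 38255 to 72891 CPM in the other libraries. Ttr and Cyp2e1 were also highest in vehicle replicate 2, whereas Apoa1, Hnf4a and Tat were lowest there. Adipocytes also make lipogenic enzymes. Of 6 adipocyte markers, 4 (Adipoq, Lep, Plin1 and Retn) stayed under 1 CPM in every library, Lep at 0, and the list summed to 23.1 to 88.0 CPM in IR vehicle and 42.2 to 199 CPM in IR insulin through Cfd and Fabp4. The part of this list in the results was not tested. In whole liver, fewer cells of a type and less RNA per cell cannot be told apart.

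Insulin left 0 of the 10 genes with an adjusted p under 0.05 (quasi-likelihood test of edgeR, Benjamini-Hochberg adjustment over 13377 genes), where 0.0% of all genes passed, and DESeq2 and voom called 0 as well. The smallest adjusted p among the 10 was 0.852, and none had an unadjusted p under 0.05. The study picked its candidate genes by stricter cuts. Its own criteria for differential expression were a log2 fold change of 0.35 or more in either direction together with an unadjusted p below 0.05. In the edgeR fit they called 0 of the 10 genes, against 2.86% of all genes tested (383 genes, 1.0% of all higher and 1.86% lower with insulin). The fitted change was positive for 3 of the 10, against 48.6% of all genes, and negative for 7, with a median of −0.10, beside a median of −0.017 over all genes tested. With library totals as the only scaling, where the median over all genes moved to 0.161, 7 were positive and 3 negative. Under these 2 scalings, 3 of the 10 lay above the median of all genes and 7 below it. This split was not stable over the other fits. The number above the median was 5 with voom and without insulin replicate 3, and 2 without insulin replicate 2. The groups did not overlap for 1 of the 10, Acacb, which was higher with insulin, while 6.25% of all genes were separated in that direction and 6.04% in the other.

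**Figure D1:**
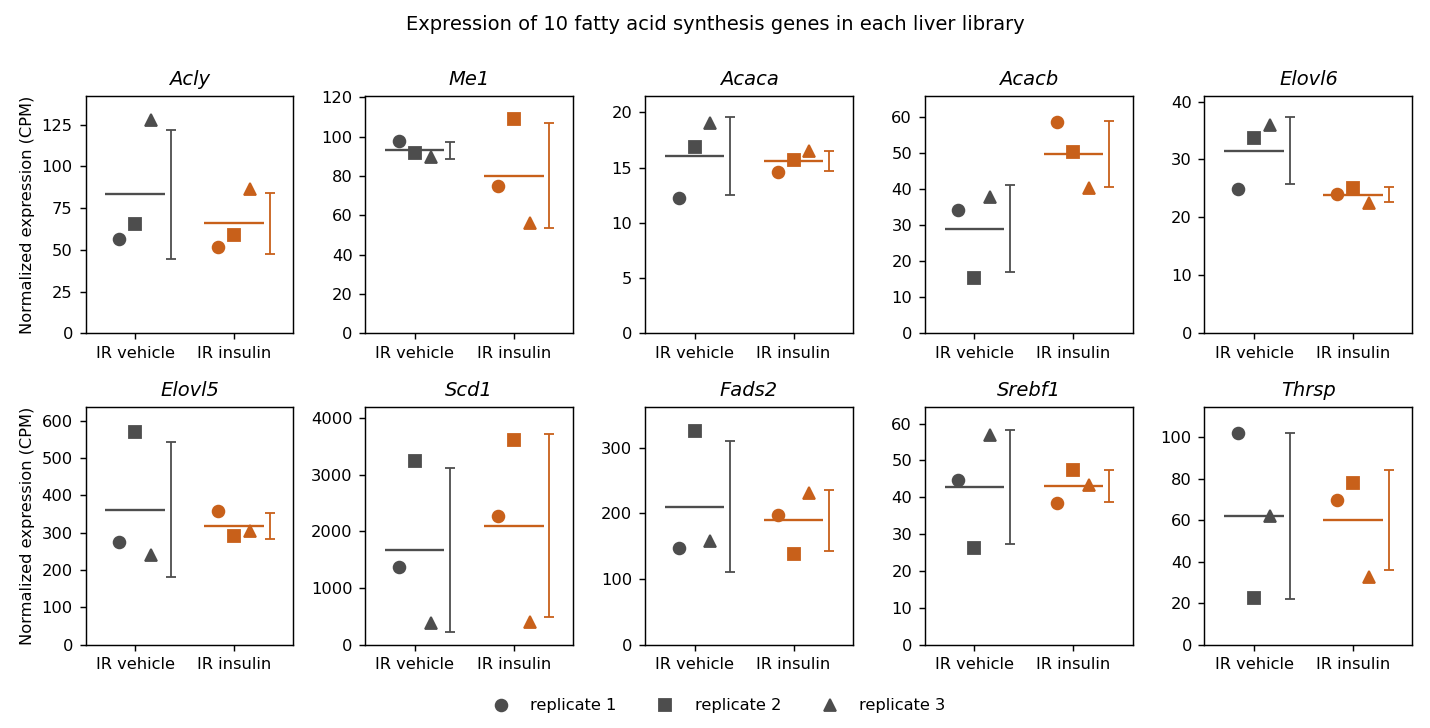
Normalized expression (CPM, y axis from 0) of the 10 genes in the 3 IR vehicle (grey) and 3 IR insulin (orange) libraries. Symbols mark replicates, horizontal lines the group mean and error bars the SD. Acacb is the gene whose groups do not overlap, and Scd1 has the widest spread within both groups.

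ATP citrate lyase, encoded by Acly (chromosome 11, 100476353 to 100528000, minus strand, GRCm38), makes the cytosolic acetyl-CoA from which chains are built. Its level was 56.7, 65.5 and 128 CPM in the vehicle mice numbered 1, 2 and 3 and 51.9, 58.9 and 86.7 CPM in the insulin mice, in the same order throughout. Replicate 3 was the highest library of each group, and the groups overlapped. The means were 83.3 ± 38.7 and 65.9 ± 18.4 CPM (SD, n = 3), with a log2 fold change of −0.34 ± 0.363 (SE, 95% interval −1.18 to 0.498, adjusted p 0.854 by edgeR). Without vehicle replicate 3, the log2 fold change was 0.11.

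Malic enzyme 1, encoded by Me1 (chromosome 9, 86581371 to 86695953, minus strand), supplies NADPH for the synthesis. It was the most even of the 10 genes in the vehicle group, at 98.0, 91.5 and 89.9 CPM, and it spread from 56.3 CPM in insulin replicate 3 through 74.9 CPM in replicate 1 to 109 CPM in replicate 2. The coefficient of variation was 4.62% in IR vehicle and 33.5% in IR insulin. The log2 fold change was −0.22 ± 0.276 (SE, 95% interval −0.855 to 0.421, adjusted p 0.86 by edgeR), and −0.0048 without insulin replicate 3.

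The acetyl-CoA carboxylases make malonyl-CoA. ACC1, encoded by Acaca (chromosome 11, 84129672 to 84401651, plus strand), is cytosolic and feeds chain synthesis, whereas ACC2, encoded by Acacb (chromosome 5, 114146535 to 114250761, plus strand), sits at the mitochondrial membrane, where its malonyl-CoA restrains fatty acid import. Acaca was measured at 12.2, 16.9 and 19.1 CPM in the vehicle mice and 14.6, 15.7 and 16.5 CPM in the insulin mice. The 3 insulin values lay inside the range of the vehicle values. Its log2 fold change was −0.041 ± 0.241 (SE, 95% interval −0.598 to 0.516, adjusted p 0.966 by edgeR), so a change beyond 1.43-fold up or 0.66-fold down lay outside the interval.

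Acacb stood at 34.2, 15.2 and 37.6 CPM in the vehicle mice and 58.5, 50.1 and 40.2 CPM in the insulin mice. All 3 insulin values were above all 3 vehicle values, the nearest being insulin replicate 3 and vehicle replicate 3. The means were 29.0 ± 12.1 and 49.6 ± 9.17 CPM (SD, n = 3), a 1.71-fold difference with a 95% interval from 0.969 to 3.01. On the log2 scale the difference was 0.77 ± 0.354 (SE; unadjusted p 0.0611, adjusted p 0.852 by edgeR), and the adjusted p ranged from 0.520 to 1.0 across 14 alternative fits. Vehicle replicate 2 was the lowest library, and the Acacb transcript has 56.7% GC, above 86.8% of the genes tested. Without that library the log2 fold change was 0.47 (unadjusted p 0.0446 by edgeR), and with an offset for GC content it was also 0.47 (unadjusted p 0.0463 by edgeR). Without insulin replicate 1 the unadjusted p was 0.170 (edgeR), and without vehicle replicate 3 it was 0.0328. Acacb overlaps a processed pseudogene on the opposite strand and Acaca a coding gene on the opposite strand, and counting by strand was not stated, so both counts are uncertain.

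Elongases add 2-carbon units from malonyl-CoA to existing chains. ELOVL6, encoded by Elovl6 (chromosome 3, 129532355 to 129638495, plus strand), lengthens palmitate to stearate, and ELOVL5, encoded by Elovl5 (chromosome 9, 77917364 to 77984519, plus strand), acts mainly on polyunsaturated chains. Elovl6 was at 25.0, 33.6 and 35.9 CPM in the vehicle mice and 24.0, 25.1 and 22.6 CPM in the insulin mice. The groups overlapped by a narrow margin, since insulin replicate 2 exceeded vehicle replicate 1. The means were 31.5 ± 5.76 and 23.9 ± 1.28 CPM (SD, n = 3), with a log2 fold change of −0.40 ± 0.224 (SE, 95% interval −0.917 to 0.12, unadjusted p 0.114, adjusted p 0.852 by edgeR). It kept a negative sign in all 14 alternatives, from −0.54 to −0.19, and its unadjusted p was 0.0471 without vehicle replicate 1 (adjusted p 0.506 by edgeR; 0.506 to 1.0 over the alternatives). The gene overlaps an antisense gene and an unconfirmed transcript.

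Elovl5 was at 275, 571 and 239 CPM in the vehicle mice and 357, 291 and 304 CPM in the insulin mice. Vehicle replicate 2 was the highest library and the other 5 lay between 239 and 357 CPM. The log2 fold change was −0.19 ± 0.356 (SE, 95% interval −1.01 to 0.635, adjusted p 0.896 by edgeR) over all libraries and 0.31 without vehicle replicate 2 (unadjusted p 0.128 by edgeR).

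Desaturases insert double bonds. Stearoyl-CoA desaturase 1, encoded by Scd1 (chromosome 19, 44394455 to 44407879, minus strand), makes monounsaturated oleate and palmitoleate, and the delta-6 desaturase, encoded by Fads2 (chromosome 19, 10062765 to 10101746, minus strand), acts on polyunsaturated chains. Scd1 had 1378, 3242 and 385 CPM in the vehicle mice numbered 1, 2 and 3, and 2278, 3623 and 402 CPM in the insulin mice numbered 1, 2 and 3. In both groups replicate 2 was highest and replicate 3 lowest, and the highest library exceeded the lowest 8.41-fold with vehicle and 9.01-fold with insulin. The biological coefficient of variation of Scd1 was 0.716, higher than for 98.2% of the genes tested. Its log2 fold change was 0.33 ± 0.874 (SE, adjusted p 0.928 by edgeR), and the 95% interval, −1.69 to 2.35, allowed anything from a 0.311-fold to a 5.1-fold level. Without vehicle replicate 2 the log2 fold change was 1.26 (unadjusted p 0.204 by edgeR), without vehicle replicate 3 it was −0.14 and without insulin replicate 2 it was −0.31. Scd1 belongs to a cluster of close paralogs on chromosome 19, so reads can be split among them, although Scd2 stood at 2.96 to 7.88 CPM in the 6 libraries.

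Fads2 was at 148, 325 and 158 CPM in the vehicle mice and 198, 138 and 231 CPM in the insulin mice. Vehicle replicate 2 was the highest library and insulin replicate 2 the lowest. The log2 fold change was −0.15 ± 0.366 (SE, 95% interval −0.995 to 0.694, adjusted p 0.922 by edgeR). It was −0.62 with a GC offset and 0.31 once vehicle replicate 2 was left out, the Fads2 transcript having 54.4% GC. The SE with the offset was 0.491. On GC-corrected log2 values, vehicle replicate 2 stood at 8.96, against 7.03 to 7.68 in the other libraries.

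SREBP1, encoded by Srebf1 (chromosome 11, 60199089 to 60222581, minus strand), is a transcription factor through which insulin raises lipogenic genes, and its own gene is among the insulin-responsive ones. The counts cover all 12 annotated transcripts, so the SREBP1a and SREBP1c forms were not separated. Srebf1 was at 44.8, 26.2 and 57.0 CPM in the vehicle mice and 38.5, 47.3 and 43.3 CPM in the insulin mice. All insulin values lay within the range of the vehicle values. The group means were 42.7 ± 15.5 and 43.0 ± 4.42 CPM (SD, n = 3), with a log2 fold change of 0.012 ± 0.302 (SE, 95% interval −0.685 to 0.709, adjusted p 0.993 by edgeR). Srebf1 has the highest GC content of the 10 genes, 58.4%, and was lowest in vehicle replicate 2. Its log2 fold change was −0.24 without that library (unadjusted p 0.210) and −0.42 with a GC offset (unadjusted p 0.0585, adjusted p 0.932 by edgeR). It overlaps Rai1 on the opposite strand.

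Thrsp (chromosome 7, 97412938 to 97417730, minus strand) encodes Spot 14, a small protein of lipogenic tissues that pairs with the product of Mid1ip1, a promoter of acetyl-CoA carboxylase polymerization. It was at 102, 22.3 and 61.8 CPM in the vehicle mice and 69.6, 77.8 and 32.6 CPM in the insulin mice. Vehicle replicate 2 and insulin replicate 3 were low, and the groups overlapped over most of their range. The log2 fold change was −0.050 ± 0.539 (SE, 95% interval −1.29 to 1.19, adjusted p 0.982 by edgeR), 0.51 without vehicle replicate 1 and −0.44 without vehicle replicate 2. Its biological coefficient of variation, 0.472, was above that of 86.4% of genes.

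**Figure D2:**
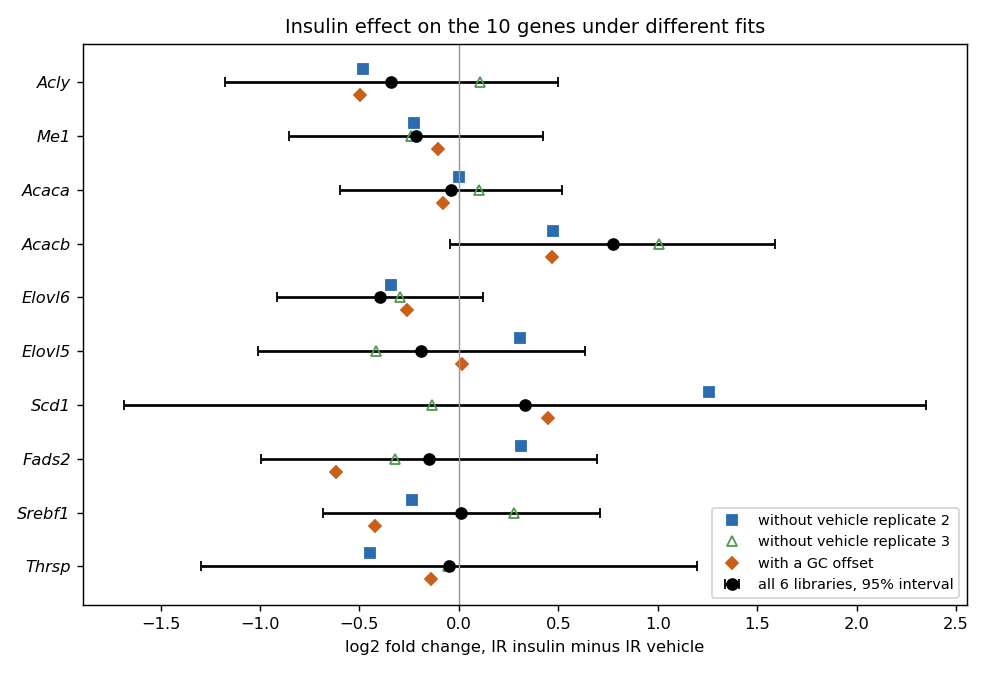
Log2 fold changes of the 10 genes (x axis, IR insulin minus IR vehicle) from edgeR. Black circles with bars are the fit on 6 libraries with 95% intervals, and coloured symbols are fits without vehicle replicate 2, without vehicle replicate 3 or with a GC offset. Every interval includes 0, and the estimates for Elovl5 and Fads2 lie at 0.31 without vehicle replicate 2.

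Per kilobase of the longest annotated transcript, the highest and lowest of the 10 genes differed in level more than any of the 10 differed between the groups. Neighbours in the order could lie closer than that. Scd1 led at a mean of 390 CPM per kb over the 6 libraries (79.7 to 750), followed by Elovl5 at 122, Fads2 at 63.4, Thrsp at 43.6, Me1 at 26.3, Acly at 16.9, Srebf1 at 9.97, Elovl6 at 4.65, Acacb at 4.47 and Acaca at 1.66 CPM per kb. The steps from Elovl5 to Fads2, from Acly to Srebf1 and from Srebf1 to Elovl6 held in 6 of 6 libraries. Scd1 was above Elovl5 in 4 of 6 libraries, Fads2 above Thrsp in 4, Me1 above Acly in 4 and Elovl6 above Acacb in 3, so these neighbours were not separated beyond their spread. Bowtie2, the aligner named by the study, does not by itself split reads across introns. The longest transcripts of Acaca and Acacb have 56 and 53 exons, against 6 for Scd1 and 8 for Elovl5. Between these in level, exon number did not follow the order. It was 12 for Fads2, 1 for Thrsp, 14 for Me1, 29 for Acly, 19 for Srebf1 and 5 for Elovl6. The part of junction reads in the order of levels was not tested.

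**Figure D3:**
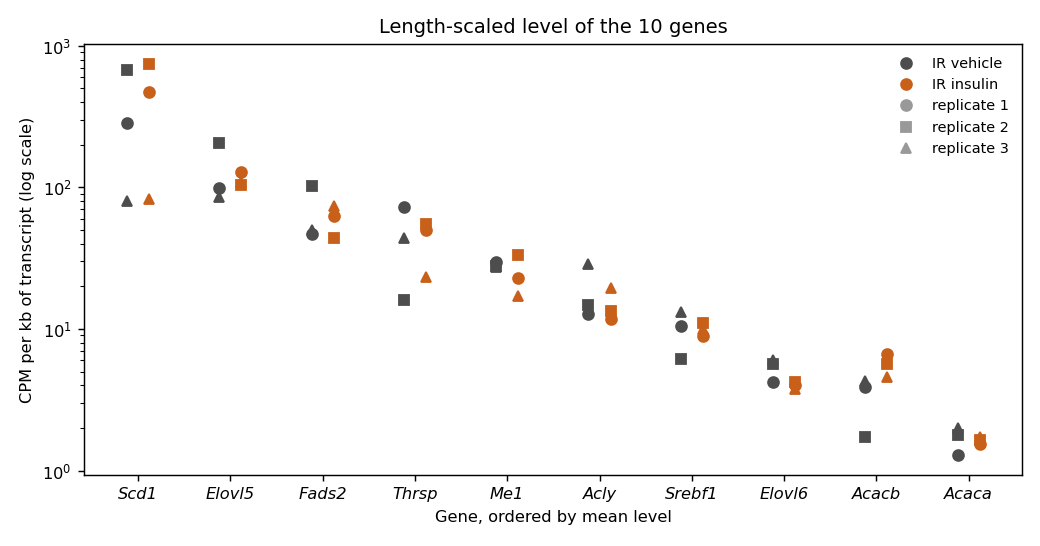
Level of the 10 genes per kilobase of the longest transcript (y axis, CPM per kb, log scale) in each library, ordered by the mean. Grey and orange mark IR vehicle and IR insulin and symbols the replicate. Levels run from 1.66 (Acaca) to 390 (Scd1) CPM per kb on average.

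Libraries of one group differed in which of the 10 genes they favoured. Vehicle replicate 3 was the highest library for 4 of the 10, Acly, Acaca, Elovl6 and Srebf1, against 23.4% of all genes tested. It was the lowest for Scd1 and Elovl5. The same library had the highest levels of the gluconeogenic genes Pck1 (3543 CPM, against 647 to 1786 CPM elsewhere) and G6pc (365 CPM, against 61.9 to 126 CPM), which insulin represses, and of Igfbp1 (266 CPM, against 3.99 to 60.2 CPM). Irs2, the remaining gene of the fasting and insulin response list, was also highest there, at 15.1 CPM. Insulin replicate 3 was second for Pck1, G6pc, Igfbp1 and Acly, behind vehicle replicates 3 and 1 for Irs2 (10.4 CPM) and second lowest for Scd1. The part of the fasting state of single mice in these differences was not tested.

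In vehicle replicate 2, Elovl5 and Fads2 were at their highest, 0.81 and 0.77 above their means over the 6 libraries on the log2 scale. Scd1 stood 1.28 above its mean in vehicle replicate 2, behind 1.44 in insulin replicate 2. Vehicle replicate 2 was the highest library for 35.8% and the lowest for 37.4% of all genes tested, and among 16 other elongation and desaturation genes it was the highest for 6 and the lowest for 6. Fads1, the delta-5 desaturase, had 194 CPM there and 113 to 163 CPM in the other libraries, and Elovl2, which elongates long polyunsaturated chains, had 815 CPM there and 248 to 446 CPM in the others. Acacb, Srebf1 and Thrsp were at their lowest in vehicle replicate 2, at −1.26, −0.67 and −1.27. The transcripts of Elovl5 and Elovl2 have 44.8 and 44.0% GC and those of Acacb and Srebf1 56.7 and 58.4%, whereas Fads2 and Fads1 have 54.4 and 52.2% and Thrsp 52.0%. Elovl6 and Me1, at 44.0 and 45.1% GC, stood 0.30 and 0.11 above their means in vehicle replicate 2. The grouping in this paragraph was chosen after the values were seen.

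**Figure D4:**
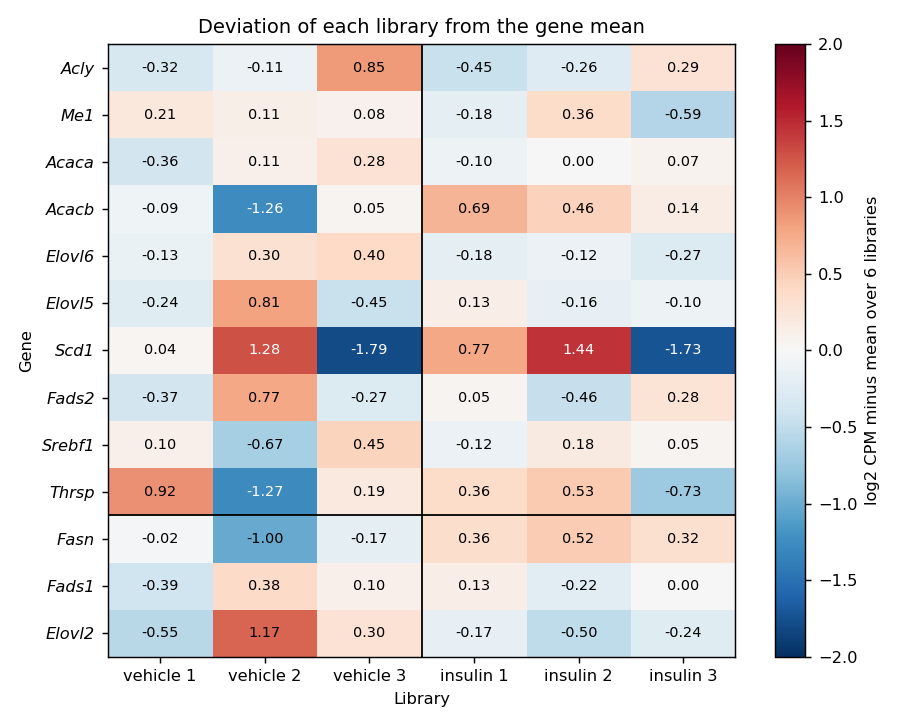
Deviation of each library (columns) from the mean of a gene over the 6 libraries, in log2 CPM (colour and printed value), for the 10 genes above the line and Fasn, Fads1 and Elovl2 below it. Red is above and blue below the mean. Vehicle replicate 2 is high for Scd1, Elovl5, Fads2, Fads1 and Elovl2 and low for Acacb, Srebf1, Thrsp and Fasn, and Scd1 is low in both libraries numbered 3.

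Sequence upstream of the RefSeq start sites (build GRCm38.p6) was available for 9 of the 10 genes, all but Scd1, in 12 windows of 250 bases. It was searched on both strands for the E-box CACGTG, bound by USF and ChREBP, the sterol regulatory element TCACNCCAC, bound by SREBP, and the CCAAT box, bound by NF-Y. The E-box occurred in the window of Elovl5, 161 bases before the start, and in 6.02% of all 32851 windows. The sterol regulatory element in this exact pattern occurred in none of the 12 windows, and in 1.05% of all windows. Variants of the element were not searched, so its absence from these windows was not shown. The CCAAT box occurred at Acacb, at Elovl5 and Thrsp with 2 copies each, at 1 of 2 starts of Me1 and at 2 of 3 starts of Srebf1, and in 33.8% of all windows. Several of these starts lie inside the gene as annotated by GENCODE, by 65766 bases for Acaca, 18983 for Acacb, 8676 for the Me1 start with the CCAAT box and 12110 for 1 of the Srebf1 starts with it. The windows of 3 genes that differed in their profile over the libraries are shown because they end at the annotated gene start: Elovl5 (highest in vehicle replicate 2; chr9:77917115-77917364, plus strand), Srebf1 (lowest in that library; chr11:60222582-60222831, minus strand) and Acly (highest in vehicle replicate 3; chr11:100528001-100528250, minus strand). They are written 5′ to 3′ with matches to the 3 motifs in capitals. The Srebf1 window shown is that of 1 of 3 starts, and the starts were not assigned to the SREBP1a or SREBP1c form.
Elovl5: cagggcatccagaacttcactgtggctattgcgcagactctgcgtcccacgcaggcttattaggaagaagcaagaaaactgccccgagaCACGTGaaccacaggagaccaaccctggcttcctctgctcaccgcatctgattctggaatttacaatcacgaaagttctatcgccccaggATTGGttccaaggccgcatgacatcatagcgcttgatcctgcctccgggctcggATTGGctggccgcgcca
Srebf1: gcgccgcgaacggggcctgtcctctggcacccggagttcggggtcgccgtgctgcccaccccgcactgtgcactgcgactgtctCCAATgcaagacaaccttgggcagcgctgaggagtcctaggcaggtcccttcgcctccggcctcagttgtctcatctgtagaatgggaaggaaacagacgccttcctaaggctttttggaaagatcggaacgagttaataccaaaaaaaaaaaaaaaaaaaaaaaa
Acly: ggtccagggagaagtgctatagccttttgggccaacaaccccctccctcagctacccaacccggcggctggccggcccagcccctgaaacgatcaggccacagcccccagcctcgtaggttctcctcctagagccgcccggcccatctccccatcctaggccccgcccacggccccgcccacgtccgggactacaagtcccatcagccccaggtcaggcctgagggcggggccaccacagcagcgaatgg
A match describes letters in the window and was not tied to the levels above.

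The other genes of fatty acid synthesis were read from a list of 54, of which 53 were in the table and 45 passed the filter. None differed at an adjusted p under 0.05. The study's criteria called 1 of the 45, higher with insulin, against 1.0% of all genes in that direction. The fitted changes were positive for 24 and negative for 21, with a median of 0.021. The gene called was Fasn, fatty acid synthase, at 78.1, 39.6 and 70.2 CPM in the vehicle mice and 102, 113 and 99.3 CPM in the insulin mice (log2 fold change 0.74 ± 0.287 SE, unadjusted p 0.0327, adjusted p 0.852 by edgeR). Its unadjusted p was under 0.05 in 10 of 14 alternatives, including 0.0134 (edgeR) at a log2 fold change of 0.50 without vehicle replicate 2. The unadjusted p was 0.0662 to 0.1 (edgeR) with 1 insulin replicate left out, at log2 fold changes of 0.68 to 0.79, and 0.131 with a GC offset, at 0.32. Like Acacb, Fasn was lowest in vehicle replicate 2 and has a high GC content (57.9%).

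Among genes that supply citrate, acetyl-CoA and NADPH, 5 of 7 were positive and 2 negative, and the smallest p values belonged to Idh1, a cytosolic NADPH source, at −0.39 ± 0.249 (log2 fold change with SE), and Pgd of the pentose phosphate pathway, at 0.35 ± 0.241. Of 8 genes of chain synthesis and of carboxylase partners, 5 were positive. Mid1ip1, the partner of Spot 14, was at 0.51 ± 0.322. Of 9 elongation genes, 3 were positive and 6 negative. Hacd4, a dehydratase of the elongation cycle, was at −1.26 ± 0.588 with under 2 CPM in each library, and Elovl2 at −0.77 ± 0.413. The latter was −0.23 without vehicle replicate 2, and −1.09 with an unadjusted p of 0.0135 (edgeR) without vehicle replicate 1. Of 7 desaturation genes, 3 were positive and 4 negative, led by Fads6 at 0.44 ± 0.267 and Degs1, the dihydroceramide desaturase, at −0.31 ± 0.229, with Fads1 at −0.086 ± 0.262 and Scd2 at 0.32 ± 0.42. Of 14 genes of transcriptional control and glucose-responsive lipogenesis, 8 were positive and 6 negative. Pklr, a glycolytic ChREBP target, was at 0.60 ± 0.289, Mbtps2, a protease that releases SREBP, at −0.69 ± 0.342 (−0.34 with a GC offset and −0.23 once vehicle replicate 2 was left out) and Mlxipl at −0.014 ± 0.441. The unadjusted p values of the genes named in this paragraph were 0.0639 or more over the 6 libraries, the smallest being that of Hacd4, and their adjusted p values from 0.852 to 0.994 (edgeR).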

How the data were processed

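Liver RNA from 6 IR mice was sequenced, 1 library per mouse. Per the study's methods and processing notes, the authors made NEBNext Ultra libraries, read them on a HiSeq instrument and mapped them to mm10 with Bowtie2 2.2.3. The deposited values were whole-number read counts per gene, neither normalized nor pooled. The counting program, annotation and strand setting are not given in the sources used here.

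Groups and replicate numbers came from the sample titles, and no label names a batch or date. Counts were tested with edgeR 4.0.16 (glmQLFit, glmQLFTest; R 4.3.3), with TMM factors, no covariate and filterByExpr (minimum count 10, minimum total 15), insulin minus vehicle, and p values were adjusted over 13377 genes. SEs came from the F statistic and 95% intervals from the t distribution with the fitted degrees of freedom. The script was tested on simulated data. An exact permutation test of 3 against 3 cannot give a two-sided p under 0.1. Each of the 10 genes had 231 or more reads per library. The common coefficient of variation between libraries was 0.357, and with 1 library per mouse it holds both the animal and the preparation. Coordinates, transcript length, exon number and GC content were read from GENCODE M21 (GRCm38, the build of the files), with GC content for 13367 of the genes tested.

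Alternatives were RLE, upper-quartile or no composition factors, no filter, DESeq2 1.42.0 (the authors' tool), limma 3.58.1 voom with quality weights, a replicate block, a GC offset (per-library loess, span 0.5) and leaving out each library. The 10 genes, the list of 54 other genes and the marker lists were chosen with earlier results of these data known. Named in the text are the 10 genes, list genes with an unadjusted p under 0.05, the 2 with the smallest p of each of 5 subgroups, and Fasn, Fads1, Scd2 and Mlxipl. Any further gene was picked with its values in view.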

Additional observations from a re-analysis of the deposited data

How the results depend on the processing

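Adjusted p under 0.05 was reached by 0 of the 10 genes, 0 of the other 45 and 0 of all genes in the main edgeR fit and all 14 alternatives, with 99 to 1349 genes at an unadjusted p under 0.05. The study's criteria called 383 genes in the main edgeR fit and 507 (3.79%) with DESeq2, the authors' tool. They called 742 with no filter, 213 with voom and 99 to 1349 with 1 library left out (1349, 508 and 888 without vehicle replicates 1, 2 and 3). Of the 10 genes, they called 0, and 1 in each of 7 alternatives. That gene was Acacb with no filter, with voom, with the replicate block, with a GC offset, and without vehicle replicate 2 or 3, and Elovl6 without vehicle replicate 1. The range with 1 library left out was thus 0 to 1. Of all genes, the criteria called 3.22% with no filter, 1.59% with voom, 2.4% with the block and 3.53% with the GC offset. They called 9.81, 3.69 and 6.51% without vehicle replicates 1, 2 and 3. Of the other 45 genes they called 1, and 2 (4.44%) with voom, beside 1.59% of all genes. With 1 library left out they called 0 to 5 of these. The 5 of 45 (11.1%) without vehicle replicate 1 or 3 stood beside 9.81 and 6.51% of all genes in those fits, the 3 (6.67%) without vehicle replicate 2 beside 3.69%, and the 0 to 1 without an insulin replicate beside 0.727 to 1.05%. The median log2 fold change of the 10 genes was 0.069 with library totals and 0.027 with voom, and that of the other genes 0.21 with library totals and −0.19 with a GC offset. Acacb, Elovl6 and Me1 kept their sign in all 14 alternatives.

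Signs turned for the following log2 fold changes. With library totals they were 0.15 for Acaca, 0.038 for Elovl5, 0.058 for Thrsp, 0.079 for Fads2, 0.12 for Fads1 and 0.12 for Mlxipl. With voom they were 0.15 for Acaca, 0.19 for Elovl5, −0.098 for Srebf1, 0.16 for Fads2 and 0.20 for Fads1. With a GC offset they were 0.013 for Elovl5 and −0.42 for Srebf1. With upper-quartile factors they were 0.0045 for Acaca and 0.011 for Mlxipl, with no filter 0.014 for Mlxipl, and for Srebf1 −0.0001 with RLE and −0.0002 with DESeq2. With 1 library left out, values ran from −0.20 to 0.10 for Acaca, −0.58 to 0.11 for Acly, −0.31 to 1.26 for Scd1, −0.41 to 0.31 for Elovl5, −0.24 to 0.28 for Srebf1, −0.44 to 0.51 for Thrsp, −0.35 to 0.31 for Fads2, −0.27 to 0.11 for Fads1, −0.19 to 0.52 for Scd2 and −0.40 to 0.44 for Mlxipl. The causes were not tested.

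Libraries with the same replicate number did not deviate together over all genes (r of deviations across genes −0.039, 0.069 and 0.017 for numbers 1, 2 and 3). No label says whether the number pairs the mice. These values cannot decide it, since single genes such as Scd1 followed the number in both groups. The replicate block gave 321 genes by the study's criteria, Acacb at 0.86 (unadjusted p 0.0476), Thrsp at 0.060 and Mlxipl at 0.18 (edgeR). Scd1 was at 0.32 ± 0.348 with the block (SE, against 0.874 in the main fit) and Acly at −0.28 ± 0.27 (SE, against 0.363). For the rest of the 10 genes the SE was larger with the block than in the main fit.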

Other observations

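The balance of the carboxylases within a library does not depend on library scaling. The count ratio of Acacb to Acaca was 2.8, 0.902 and 1.97 in vehicle replicates 1, 2 and 3 and 4.0, 3.19 and 2.44 in insulin replicates 1, 2 and 3. Its means were 1.89 ± 0.95 and 3.21 ± 0.779 (SD, n = 3), and the groups overlapped (two-sided exact permutation test, p = 0.2, where 0.1 is the smallest p possible). The ratio of Fasn to Acaca was 6.39, 2.35 and 3.68 with vehicle and 6.94, 7.21 and 6.03 with insulin, with the same exact p of 0.2. The ratio of Fads2 to Fads1, the paired desaturases of one gene cluster on chromosome 19, was 1.31, 1.67 and 0.99 with vehicle and 1.21, 1.09 and 1.55 with insulin (exact p = 1.0). These 3 are among 6 ratios computed, chosen after the values were seen, and none gave an exact p under 0.2. Transcript GC content differs between Acacb (56.7%) and Acaca (49.1%), and vehicle replicate 2 gave the lowest ratio of Acacb to Acaca and of Fasn to Acaca.

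Of the 8 listed genes under the filter on low counts, Pnpla3, which encodes a lipid droplet protein and is a known SREBP1c target in fed liver, stood at 0.0901 CPM or less in every library, and Scd3, Scd4 and Elovl4 at 0.212 CPM or less. They were picked with their values in view.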
